A study of Mus musculus with 3 samples.

Results

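Antisense RNA genes are transcribed from the DNA strand opposite to another gene. The genes described here met a pair of conditions: each of their annotated transcripts has the type antisense, and they reached 1 TPM (a share of all transcripts, scaled by transcript length) or more in every library. Of 2948 antisense genes among 55536 mouse genes, 88 met both conditions, or 2.99%. The second condition used the measured level, so the levels below are a description and carry no test.

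The libraries held polyadenylated RNA of macrophages grown from the bone marrow of C57BL/6J mice. The cells had been exposed to 100 ng/mL of a stimulus for 180 min, which the labels call lipid A in one field and lipoprotein A in others. There were 3 biological replicates of this single group, all with the same donor identifier, and no unstimulated group was analysed here. The spread between replicates is therefore the spread between these 3 libraries, which may be technical, and no value below is a response to the stimulus. Expected counts (estimated fragment counts) over mouse genes were 24450338, 34641026 and 60595742 in replicates 1, 2 and 3. All 8 macrophage markers checked were detected, and lists of B cell, mast cell and erythroid markers summed to under 1 TPM in each library. Of 5 T cell markers 1 was detected, and their sum was 34.9, 25.2 and 46.5 TPM. The 4 fibroblast markers, none detected, summed to 0.17, 6.78 and 0.31 TPM, highest in replicate 2. A list of 6 neutrophil markers summed to 83.2, 711 and 48.2 TPM, so replicate 2 stood apart; 3 of the 6 were detected and 1, Ly6g, was at 0 in every library.

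Antisense transcripts can act on the gene they overlap, for example through transcription across its promoter or through pairing with its RNA. Some, such as Airn, Kcnq1ot1 and Tsix, silence neighbouring genes on the same chromosome in imprinting or X inactivation. Others work away from their site, and many have no known role. The sources used here do not give whether the libraries kept strand information, so reads of an antisense gene and of exons opposite to it could not be told apart by strand.

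The sequences below show what set 8 of these genes apart from the gene on the opposite strand, because several of them are among the genes on which the authors' quantifications differ most. For each, the splice junction is shown from 15 bases before it to 15 after it, 5′ to 3′ on the strand of the antisense gene, with the downstream exon in capitals. The letters come from the GENCODE M21 transcripts (mm10). The gene spans are chr4:130824394-130826313 (minus strand) for Gm26716, chr5:113842601-113843116 (plus) for Gm17122 and chr12:84918148-84919238 (plus) for Gm17139. They are chr11:101971143-101971859 (plus) for Gm20659, chr17:34601151-34601576 (plus) for Gm20463 and chr9:106452181-106452918 (minus) for Gm28959. The last pair is chr7:104261465-104262174 (minus) for Gm47248 and chr8:115705078-115707233 (plus) for Gm15655.
Gm26716: tgaactcaggacaggCTGTGCCAACTGCCT
Gm17122: ttacaacactacccaGTCGTCTGCTTCCAT
Gm17139: aaatgcttctgaacaGTCAGGCAGGGTTCT
Gm20659: tataagcaacttaagAGTGCTGGAGCCCAG
Gm20463: ggaagtaagggggtgGTGGGCAGGGAGGAG
Gm28959: ggatcagaaagtgaaGTGAGGCAGAAGCCA
Gm47248: gagctagagtaaaagGTAAGCATCAAGGCC
Gm15655: tacgggggaattcagGCTCGGGAAGGTCCT

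Each of these 8 genes has 1 annotated transcript with 2 exons, and nearly all of its exonic sequence is the reverse complement of transcripts on the opposite strand. In Gm26716, 356 of the 385 stretches of 31 bases (31-mers) also occur, on the other strand, in a transcript of another gene. The remaining 29 all span the junction printed above. In Gm17122 the junction held all 27 unshared 31-mers of 342, in Gm17139 all 24 of 541 and in Gm20659 all 22 of 574. The same was true of Gm20463 with 27 of 336, Gm28959 with 28 of 521, Gm47248 with 18 of 579 and Gm15655 with 24 of 410. The intron that the junction removes, read from the opposite-strand transcript, began with GT and ended with AG in all 8, and measured from 60 bases in Gm20463 to 1716 bases in Gm15655. An intron could be read only where an opposite-strand transcript covers it, so these ends describe only the genes shown. Gm48512, not shown, also had all its 20 unshared 31-mers of 558 across its junction. Its intron of 36231 bases could not be read.

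The detected antisense genes were mostly low. Their median level, as the mean over libraries, was 3.14 TPM with quartiles of 2.23 and 9.86 TPM, beside 15.7 TPM for detected protein-coding genes and 4.56 TPM for detected lincRNA genes. At 10 TPM or more stood 22 members, whereas 54 lay under 5 TPM and 41 under 3 TPM. Summed over members, the level was 803, 783 and 710 TPM in replicates 1, 2 and 3. That was 72.5%, 79.0% and 78.3% of the TPM of all antisense genes. The 10 highest members held 45.6%, 51.7% and 55.4% of the members' sum. Of the 2948 antisense genes, 1916 (65.0%) had 0 counts in every library.

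**Figure D1:**
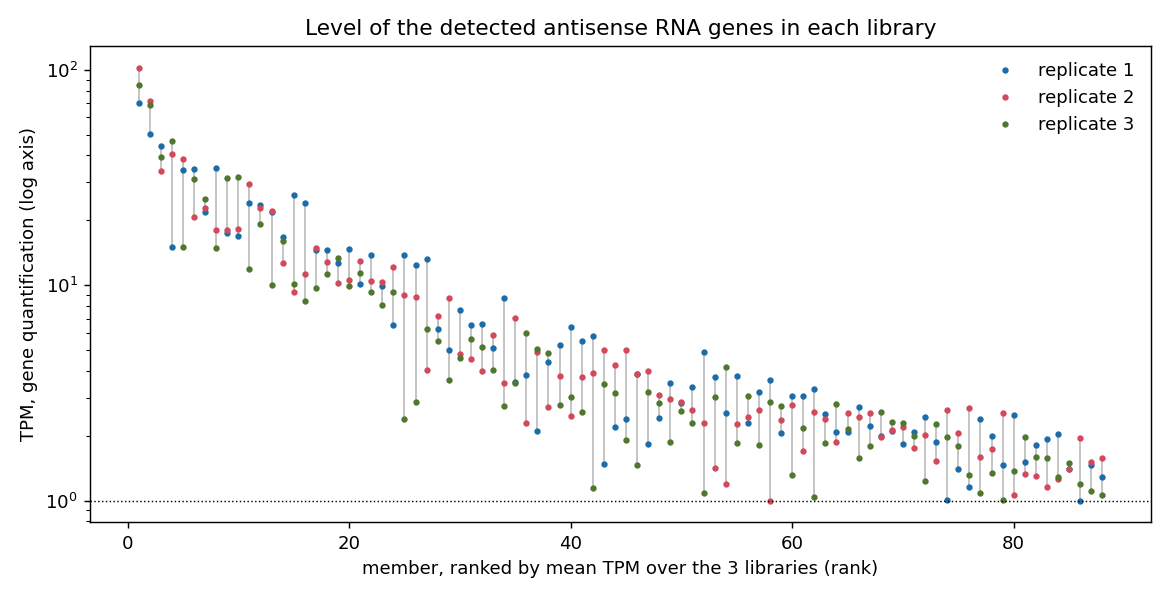
TPM in the gene quantification (vertical, log axis) of the 88 detected antisense RNA genes, ranked by their mean over the 3 libraries (horizontal); points are single libraries, grey lines join the lowest and highest library, and the dotted line is 1 TPM. A few genes stand above 20 TPM, and many genes have libraries more than 2-fold apart.

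The highest member was 4930430E12Rik (chr4:6352105-6357530, minus strand), a gene with no opposite-strand partner by the rule used below, at 69.8, 102 and 84.7 TPM. Its transcript 4930430E12Rik-202 made up 91.6 ± 2.27% of it (SD, n = 3). Gm26716, inside the 3′ UTR of the syndecan gene Sdc3, followed at 50.4, 71.6 and 68.6 TPM. A530040E14Rik was at 44.4, 33.8 and 39.3 TPM. Of its 31-mers, 38.6% occur on the same strand in transcripts of other genes, so part of its level is uncertain. All 3 genes were above 30 TPM in each library.

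Gm47428, inside the ferritin-related gene Ftl1-ps1, was at 15.04, 40.8 and 46.7 TPM, with replicate 1 well below the others. AC119228.1 (chr19:29373417-29384471, minus strand) lies within Cd274, which encodes the immune checkpoint ligand PD-L1, and was at 34.1, 38.5 and 15.1 TPM. Here replicate 3 was the low library. Gm15655 lies mostly opposite the 3′ UTR of Maf, which encodes a transcription factor of macrophages, and was at 34.6, 20.6 and 31.1 TPM.

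Brip1os (chr11:86201370-86304443, plus strand) was the steadiest of the 10 highest, at 21.8, 22.8 and 25 TPM. Gm37787, inside Slamf7, a gene for a leukocyte surface receptor, was at 34.9, 18.1 and 14.8 TPM. Gm27177 was at 17.5, 18.03 and 31.4 TPM, but 100% of its 31-mers occur on the same strand in transcripts of other genes, so its level is uncertain. The gene that shared the most of them, counting either strand, was Gm16867. A630072M18Rik, a single exon opposite Rsbn1l, was at 16.8, 18.1 and 31.8 TPM. The last pair had its highest library in replicate 3.

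A list of antisense and other noncoding RNAs known from other work had 36 names, 29 of them in the annotation. Of these 11 were antisense genes below the rule and 1 was a member, Tug1, a nuclear RNA linked to gene repression. Tug1 was at 23.5, 22.9 and 19.2 TPM. Airn, the imprinted antisense RNA of the Igf2r locus, missed the rule at 1.34, 2.45 and 0.69 TPM. Kcnq1ot1 was at 0.02, 0.06 and 0.03 TPM, and Tsix was at 0 in each library. Zeb2os was at 64.0, 65.7 and 51.3 TPM but is not a member, since its transcripts are not all of type antisense; 12 detected genes mix that type with others in this way.

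Just inside the threshold lay Gm28424 at 1.00, 1.96 and 1.20 TPM, Gm9888 at 3.64, 1.00 and 2.88 TPM and Phtf1os at 1.46, 2.54 and 1.01 TPM. Just outside lay F630028O10Rik at 1.40, 2.22 and 0.98 TPM, Gm45606 at 1.78, 0.98 and 2.44 TPM and E430024P14Rik at 2.36, 2.05 and 0.96 TPM. These genes on either side of the threshold had overlapping ranges. Replicates 1, 2 and 3 alone held 158, 123 and 109 antisense genes at 1 TPM or more, and 181 reached it in at least 1 library.

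Small spreads occurred at low and high levels. The SD over libraries of log2(TPM + 0.1) was smallest for 1700052K11Rik at 1.4, 1.4 and 1.5 TPM, followed by 4930455G09Rik at 2.83, 2.88 and 2.61 TPM. Dnmt3aos, opposite the DNA methyltransferase gene Dnmt3a, was next at 2.10, 2.12 and 2.32 TPM, and Brip1os, among the 10 highest members, had the fourth smallest SD. Its partner Dnmt3a was at 47.6, 74.1 and 115 TPM in the same libraries, a wider range than that of Dnmt3aos.

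The largest SD belonged to Gm28913, inside Ikbke, a kinase gene of antiviral signalling, at 13.7, 9.01 and 2.39 TPM. It rested on 27, 21 and 10 expected counts. Gm40578, which overlaps Tnfaip2 on the opposite strand, was at 5.79, 3.89 and 1.15 TPM. Gm17017, which overlaps Sp140 in the same way, was at 12.4, 8.77 and 2.88 TPM. On the same strand, 71.8% of the 31-mers of Gm17017 occur in transcripts of other genes, and Gm16092 shared the most, counting either strand. 2900089D17Rik was at 4.87, 2.28 and 1.09 TPM. These 4 genes were highest in replicate 1 and lowest in replicate 3. The other two of the 6 largest were not: Gm9888 was lowest in replicate 2, and Gm47428 was lowest in replicate 1 and highest in replicate 3.

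The members' median SD was 0.40 on this log2 scale. It was 0.40 over the 88 detected lincRNA genes, 0.23 over detected protein-coding genes and 0.24 over all detected genes. Over the 2963 protein-coding genes between the members' level quartiles it was 0.27. Of the 88 members, 44 had fewer than 50 expected counts in some library and 8 had fewer than 10, so counting noise is part of the spread of those genes. Among the 44 members with 50 counts or more in every library the median SD was 0.44.

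**Figure D2:**
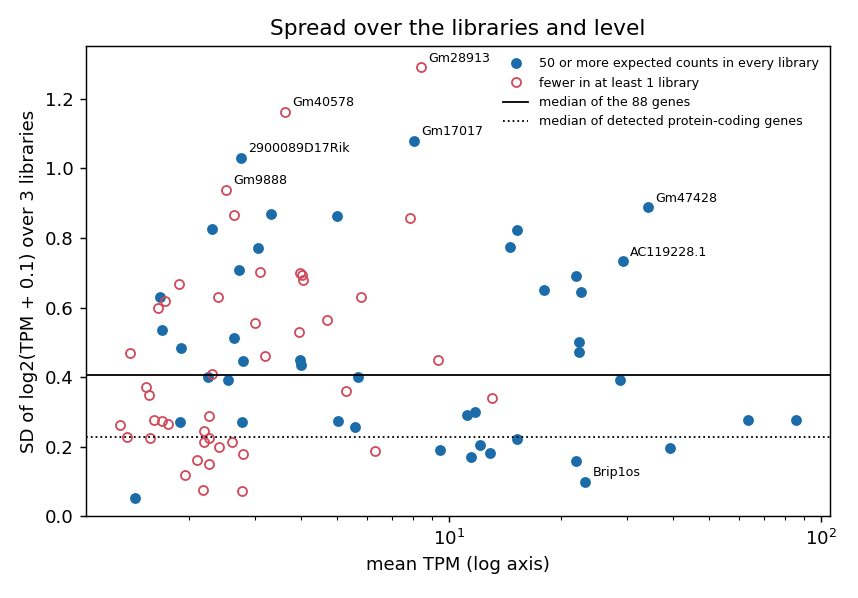
SD over the 3 libraries of log2(TPM + 0.1) (vertical) against mean TPM (horizontal, log axis) for the 88 genes; open circles have fewer than 50 expected counts in at least 1 library, and lines give the medians of these genes and of detected protein-coding genes. Genes with an SD above 0.8 occur among both open and filled circles, and most points lie above the protein-coding median of 0.23.

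A chi-square test of equal rates over the libraries, on expected counts with edgeR's TMM library sizes and Benjamini-Hochberg adjustment over all genes tested, asked whether a gene varied by more than counting noise. Of all 11611 genes tested, 77.5% departed from equal rates at an adjusted p under 0.05. Of the 88 members 80 were tested, of which 55 departed, or 68.8%. Among the 44 members with 50 counts or more in every library 41 departed, and the share of all genes with such counts was not computed. Within the middle range of the members' counts, 30 of 40 members departed, beside 59.2% of 2321 genes there. With no filter on low counts, 56 of all 88 members departed, beside 49.6% of all genes, so the order of members and all genes turned with the filter. The shares differed with the counts behind a gene, and the test says only that the libraries were not alike.

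The libraries were not equally often the highest. Replicate 1 was the highest library for 41 members, replicate 2 for 29 and replicate 3 for 18. Those counts were 46.6%, 33.0% and 20.5% of the members, beside 30.4%, 43.9% and 25.7% of all detected genes. The median deviation of members in a library from the mean of the others was 0.24, 0.04 and -0.26 on the log2 scale in replicates 1, 2 and 3. Over all detected genes it was -0.02, 0.08 and -0.04. Replicate 1 had the fewest counts and replicate 3 the most; the part of depth in this order was not tested.

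For each library the authors deposited a second quantification, made from the reads and an index, which was summed here over the transcripts of each gene. Because it uses the same reads, agreement with it is no replicate check. Its TPM lay within 2-fold of the gene quantification in every library for 63 of the 88 members, or 71.6%, beside 95.5% of all detected genes. Members whose second value was over 2-fold lower in every library numbered 9, or 10.2%, where 2.27% of all detected genes did. Members over 2-fold higher in every library numbered 8, or 9.09%, where 0.509% of all detected genes did. The remaining 8 passed 2-fold in some libraries only. Among the 88 detected lincRNA genes, 7.95% were over 2-fold lower and 7.95% over 2-fold higher in every library. The members' shares were thus near those of lincRNA genes. Across the 88 members the log2 mean levels of the quantifications had a Pearson correlation of 0.385, beside 0.943 over all detected genes.

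**Figure D3:**
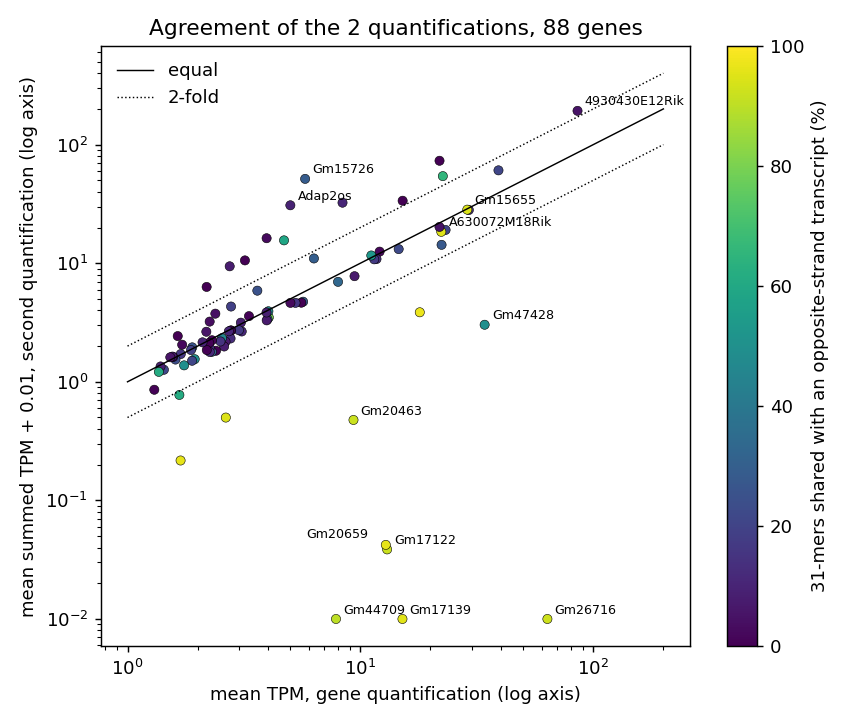
Mean TPM over 3 libraries in the second quantification, plus 0.01 (vertical, log axis), against mean TPM in the gene quantification (horizontal, log axis) for the 88 genes; the solid line marks equal values, the dotted lines 2-fold, and colour gives the percent of 31-mers shared with an opposite-strand transcript. Most genes lie between the dotted lines, while Gm26716, Gm17139 and Gm44709 are listed at 0 in the second quantification.

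Gm26716 was the clearest case of the 9 lower members. The gene quantification gave it 135, 236 and 401 expected counts and 50.4 to 71.6 TPM, and the second quantification listed it at 0 in each library. Its partner Sdc3 was at 279, 282 and 349 TPM in the first and at 197, 267 and 281 TPM in the second. Gm17139, opposite Arel1, a ubiquitin ligase gene, was at 26.1, 9.26 and 10.1 TPM and likewise listed at 0 in the second. Gm44709, opposite the elongation factor gene Supt5, was at 13.3, 4.02 and 6.29 TPM and also listed at 0.

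Gm17122, opposite the coronin gene Coro1c, was at 14.5, 14.8 and 9.73 TPM in the gene quantification. In the second it was at 0.09 TPM in replicate 1 and at 0 in the others. Gm20659, opposite the phosphatase gene Dusp3, was at 14.6, 12.8 and 11.3 TPM, and in the second at 0, 0 and 0.10 TPM. Gm20463, opposite the ubiquitin ligase gene Rnf5, was at 6.50, 12.2 and 9.32 TPM, and in the second at 1.40, 0 and 0 TPM. In these 3 genes no library of the second quantification reached the lowest library of the first.

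Gm48512, opposite the kinesin gene Kif3c, and Gm28959, opposite Abhd14b, were lower members at under 5 TPM. The ninth, Gm47428, was at 1.84, 3.11 and 4.11 TPM in the second quantification. Its partner Ftl1-ps1, a near copy of the ferritin light chain gene, also differed between quantifications, at 312, 237 and 215 TPM against 23.2, 9.07 and 8.998 TPM. Reads of that pair can come from Ftl1, so both values are uncertain. Gm47248, opposite Trim34a, was at 21.96, 21.99 and 10.02 TPM, with 11.5 TPM in replicate 1 of the second quantification and 0 in the others.

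All 9 lower members lie wholly inside the span of their partner, and 78.1% of their exonic bases face its 3′ UTR, beside 3.31% in the 71 members that were neither lower nor higher throughout. Their mean gene-quantification TPM was 14.6% to 36.4% of the partner's, with a median of 23.0%. Of the 11 members with 90% or more of their 31-mers on an opposite-strand transcript, 8 were lower; that share was set with the values in view. Of the 26 members between 20% and 90%, 1 was lower, and of the 51 under 20% none was. Across the 88 members the share of opposite-strand 31-mers and the mean log2 ratio had a Pearson correlation of -0.690 and a Spearman correlation of -0.466, given as a description.

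A shared sequence did not go with a low second value in every gene. Gm15655, whose junction is printed above, was at 51.5, 14.3 and 19.1 TPM in the second quantification, against 34.6, 20.6 and 31.1 TPM in the first. A630072M18Rik shares 95.0% of its 31-mers and was at 11.9, 16.9 and 26.3 TPM in the second. Their unshared parts differ, since the 268 unshared 31-mers of A630072M18Rik lie within its single exon.

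**Figure D4:**
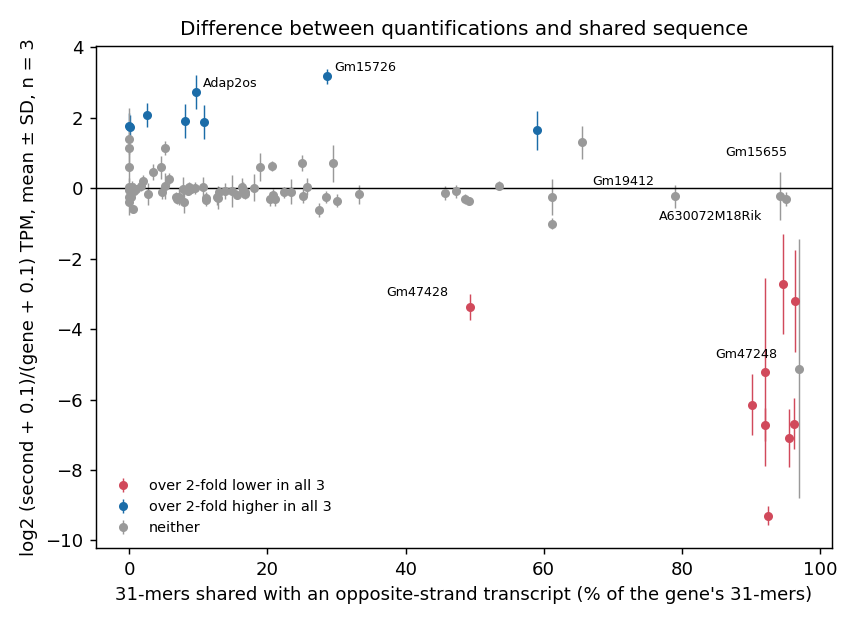
Mean and SD over 3 libraries of the log2 ratio of second to gene-quantification TPM, each plus 0.1 (vertical), against the percent of a gene's 31-mers that occur in an opposite-strand transcript (horizontal), for 88 genes; colours mark genes over 2-fold lower or higher in every library. Of the 11 genes at 90% or more, 8 are lower, and Gm15655 and A630072M18Rik lie near 0; values for genes listed at 0 depend on the added 0.1.

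The 8 higher members shared from 0% to 59.0% of their 31-mers with an opposite-strand transcript, with a median of 8.87%; the highest shares were 59.0% in Slfn5os and 28.6% in Gm15726. Of their exonic bases, 65.6% lie in introns of the partner, beside 7.58% for the lower members and 34.0% for the 71 others. Of the 30 members with 50% or more of their exonic bases in partner introns, 5 were higher and 1 was lower. The partners' median level was 215 TPM, beside 52.7 TPM for the lower members and 26.9 TPM for the others. These features were compared after the values were seen, and their part in the difference was not tested.

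Gm15726, inside Mid1, a ubiquitin ligase gene, was at 5.0, 8.74 and 3.63 TPM, and in the second quantification at 49.6, 67.4 and 37.3 TPM. The counts differed in the same way, at 21, 46 and 33 against 359, 480 and 534. Adap2os, inside Adap2, was at 8.74, 3.53 and 2.74 TPM, and in the second at 39.9, 31.03 and 21.4 TPM. For both genes the lowest library of the second quantification lay above the highest of the first.

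Gm13822 starts 37 bases from the start of Oasl1, an antiviral gene induced by interferon. It was at 6.37, 2.48 and 3.02 TPM, and in the second quantification at 21.9, 14.0 and 12.8 TPM. The first values rested on only 11, 5 and 11 expected counts. Gm16094 starts 469 bases from Sp110, a nuclear body gene, and was at 24.1, 29.6 and 11.8 TPM against 65.4, 101 and 52.7 TPM. Slfn5os, opposite the interferon-induced gene Slfn5, was at 3.54, 7.04 and 3.52 TPM against 16.7, 22.4 and 7.63 TPM. The others were Gm28913 at Ikbke, 2900089D17Rik at Bri3 and Gm26740 at Raet1e, with second values 3.69-fold, 3.76-fold and 3.33-fold the first on the log2(TPM + 0.1) scale.

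For the genes on the opposite strand, a partner was defined by position alone, as the opposite-strand gene with the largest overlap or else the nearest start within 2000 bases. A partner was found for 84 members, and all 84 partners are protein-coding. It was detected for 71, or 84.5%, beside 43.2% of the 2755 other antisense genes with a partner. The median partner level was 41.8 TPM and 26 partners reached 100 TPM. Members lay inside their partner in 37 cases, head to head with it in 28, tail to tail in 15 and across it in 4. Of the members' 186714 exonic bases, 48.4% lie outside the partner, 34.7% in its introns, 5.37% in its coding sequence, 5.0% in its 3′ UTR and 5.25% in its 5′ UTR.

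Members were usually lower than their partner. In all 3 libraries 65 members were below and 17 above it, where 79% of 5536 detected genes with a partner were above theirs. The rule takes partners of any type. The members' partners are all protein-coding, while the types of partners among the 5536 genes were not counted, so the shares may not be alike. The median partner was 7.41-fold higher than its member. Of the 17 members above, 13 had a partner that was not detected. With the partner taken by exonic overlap in place of gene span, 10 of 74 members were above it; no share of all detected genes was computed that way.

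**Figure D5:**
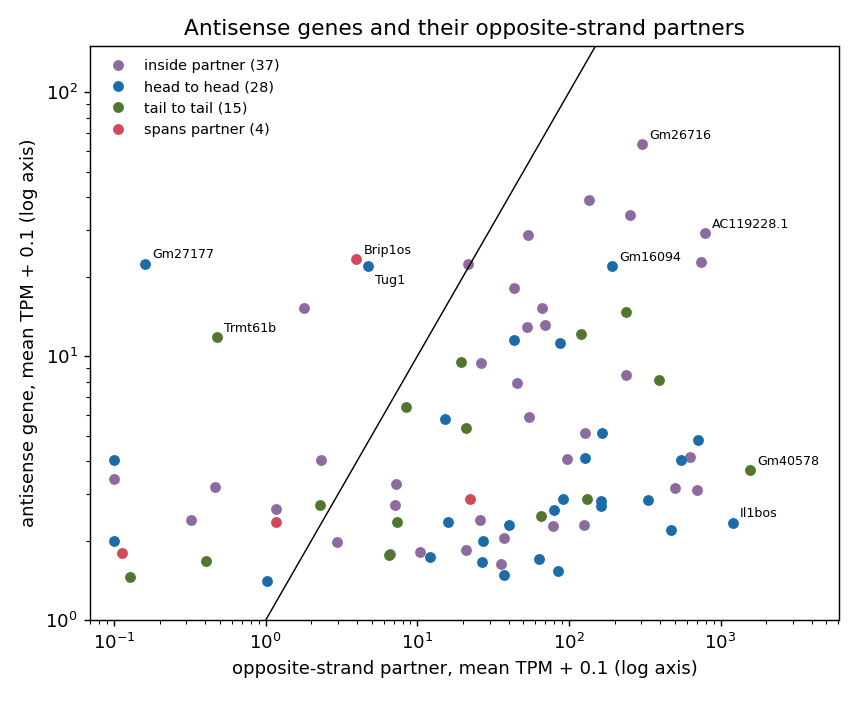
Mean TPM + 0.1 over 3 libraries of 84 antisense genes (vertical, log axis) against that of their opposite-strand partner (horizontal, log axis); colours give the arrangement, with the number of genes in brackets, and the line marks equal levels. Most points lie right of the line, and Gm27177, Trmt61b, Brip1os and Tug1 lie left of it.

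The members farthest above their partner were Gm27177 over the lysyl oxidase gene Loxl2, Sp3os, Gm30329, Trmt61b, 9530082P21Rik and Gm26642. The partner was taken by gene span, and some of these members shared the most 31-mers with another gene. That gene was Sp3 for Sp3os, Flywch1 for 9530082P21Rik and Rnpep for Gm26642. Trmt61b was at 14.7, 10.6 and 9.92 TPM, beside 0.75, 0.19 and 0.20 TPM for Spdya, a cell cycle gene. Sp3os was at 5.51, 3.76 and 2.59 TPM and its partner Gm11084 was listed at 0. Of the exonic bases of Sp3os, 172 lie in introns of Gm11084 and 720 outside it. Gm26642 was at 2.40, 1.59 and 1.09 TPM beside Elf3, an epithelial transcription factor gene, at 0.04, 0 and 0 TPM. Among members with a detected partner, Tug1 was above Morc2a, at 4.01, 5.82 and 4.10 TPM, and Brip1os was above Ints2, at 3.54, 4.96 and 3.08 TPM. Brip1os shared the most 31-mers with another gene, Med13. The others were Gm11772, 8.54-fold above Bahcc1, and Gm16536, 1.70-fold above Bace1, on the log2(TPM + 0.1) scale.

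At the other end, Gm40578 at 5.79, 3.89 and 1.15 TPM lay opposite Tnfaip2, a gene induced by tumour necrosis factor, at 1667, 1606 and 1456 TPM. Il1bos (chr2:129369897-129375748, plus strand) lies head to head with Il1b, the gene of the fever cytokine interleukin 1 beta. Il1bos was at 2.71, 2.45 and 1.57 TPM while Il1b was at 661, 2399 and 544 TPM. Replicate 2, in which Il1b and the neutrophil markers stood highest, was not the highest library for Il1bos in the gene quantification. In the second quantification Il1bos was at 2.15, 2.70 and 1.51 TPM, so that replicate 2 was its highest library there. The part of other cells in that library was not tested. 1110046J04Rik in Serpinb6a and 4930539J05Rik at Ube2d3 completed the 4 lowest.

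Some genes on lists of the macrophage response and identity had a member opposite them. Over the 9388 detected protein-coding genes, 1128 (12.02%) had an antisense partner and 71 (0.756%) had a detected one. Of 49 interferon-stimulated and antiviral genes, 4 had an antisense partner and 2 had a detected one, Sp110 and Oasl1. Of 56 inflammatory and NF-kB genes, 4 had one and 2 had a detected one, Il1b and Bcl3. Gm16174, inside Bcl3, a regulator of NF-kB, was at 2.00, 1.97 and 2.59 TPM. It rested on only 5, 6 and 14 expected counts, and was at 7.49, 7.94 and 3.46 TPM in the second quantification. Of 34 genes of macrophage identity, 5 had one and 1 had a detected one, Maf with Gm15655. Other immune genes with a member were picked out after their values were seen, among them Cd274, Slamf7, Ikbke, Sp140, Tapbp and Ebi3.

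Gm16712 overlaps the end of Ebi3, which encodes a subunit of the cytokines interleukin 27 and interleukin 35. Gm16712 was at 24.1, 11.3 and 8.45 TPM, and Ebi3 at 277, 144 and 297 TPM. Thus Gm16712 was highest in replicate 1 and lowest in replicate 3, and Ebi3 was lowest in replicate 2. Across the 71 pairs with both genes detected, the deviations of a member and its partner in a library had Pearson correlations of 0.364, 0.476 and 0.332 in replicates 1, 2 and 3. They had the same sign in 43, 43 and 47 pairs. Opposite genes can share reads in these files, and the correlations are a description.

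The members' own start regions were searched for short motifs in RefSeq promoters (GRCm38.p6, 250 bases before to 50 after the start). Symbols matched for 38 members, of which 19 had a start within 50 bases of the GENCODE start. The kappaB motif (GGGA, any 4 bases, CC), bound by NF-kB factors, was present on either strand in 6 of these 19 and in 20.7% of 32851 promoters. The interferon response core (GAAA, any 2 bases, GAAA) was in 0 of 19 and in 3.44% of promoters, and TATAAA in 0 of 19 and in 13.6%. The promoter of Gm16712 (chr17:55959352-55959651, minus strand) is shown because this gene overlaps the end of Ebi3, a target of NF-kB, and has a match. Gm16712 and Ebi3 lie tail to tail with starts 6741 bases apart, so this is not the promoter of Ebi3. Gm16712 shared the most 31-mers with another gene, Yju2. Any use of the match, which is in capitals, was not tested.
Gm16712: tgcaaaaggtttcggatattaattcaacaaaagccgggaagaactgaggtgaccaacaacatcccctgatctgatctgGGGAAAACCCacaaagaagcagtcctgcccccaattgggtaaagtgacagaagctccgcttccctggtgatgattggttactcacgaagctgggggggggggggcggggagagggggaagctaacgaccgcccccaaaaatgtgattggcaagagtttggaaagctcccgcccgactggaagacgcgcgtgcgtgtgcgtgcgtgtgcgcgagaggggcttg

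The members have 193 annotated transcripts, with 47 members having 1 and 41 having more. In 32 of the 41 the same transcript led in every library of the transcript quantification, and in 33 the leading transcript was the same in the second quantification. The leading transcript held a median of 80.4% of its gene. A530040E14Rik was an exception, since A530040E14Rik-203 made up 68.2 ± 9.48% of the gene (SD, n = 3) but nearly none of it in the second quantification, where A530040E14Rik-202 led with 33.6%. The leading transcript held under 50% in 7 of the 41 members. It held 32.9 ± 7.31% of Tug1, which has 8 transcripts, and 44.6 ± 7.30% of E130307A14Rik, which has 13.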

How the data were processed

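Counts, TPM, FPKM and percent values were used as deposited. Per the deposited text files, the authors derived the gene and transcript quantifications from an alignment to the transcriptome (mm10, GENCODE M21), and the second quantification from reads and an index; the sources used here name neither aligner nor quantifier nor strand setting. The deposited gene table holds, per the file headers, expected counts, TPM and FPKM, the transcript table adds each transcript's percent of its gene, and the second table holds estimated counts and TPM. The second table was summed over transcripts. The members and gene lists were chosen with earlier results of these data known. Spread was the SD of log2(TPM + 0.1). Equal rates were tested by chi-square with TMM sizes and the default filter of edgeR 4.0.16 (R 4.3.3), on rounded expected counts; the script was tested on simulated data. DESeq2 1.42.0 size factors were an alternative. A count of 0 allows up to 3 counts, or 0.123, 0.0866 and 0.0495 CPM in replicates 1, 2 and 3, for counting error only. A quantity over 3 libraries cannot reach p under 0.25 in an exact sign-flip test, so none is given. Genes named are the 10 highest members, the 6 largest and 4 smallest in spread, the 6 largest differences between quantifications, the 6 highest and 4 lowest against the partner, those nearest the threshold, and members whose partner or symbol is on a list; other genes named were chosen after their values were seen. Overlaps and 31-mers came from GENCODE M21.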

Additional observations from a re-analysis of the deposited data

How the results depend on the processing

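The count of 88 detected genes became 145 at 0.5 TPM, 49 at 2 TPM, 135 by the second quantification and 93 to 103 with a replicate left out; by FPKM it was 63. Members departing from equal rates numbered 54 of 80 with DESeq2 size factors (77.6% of all genes), 60 of 78 in the second quantification (77.7%) and 56 of 88 without a filter (49.6%). They numbered 39 of 83, 38 of 83 and 40 of 81 without replicates 1, 2 and 3, beside 64.3%, 50.6% and 58.8% of all genes. The median spread was 0.32 to 0.46 under other settings and 0.29 to 0.34 with a replicate left out. Members over 2-fold apart numbered 7 of the 44 with 50 counts or more, 14 to 19 under other settings and 17 to 21 with a replicate left out. Members above their partner numbered 10 of 74 when the partner was taken by exonic overlap, and 17 to 18 with a replicate left out. For the 2-fold and partner counts, no share of all detected genes was computed under these other settings. In the second quantification the median deviation in replicate 2 was 0.23, beside 0.33 for all detected genes; the cause was not tested. It was -0.11 with TMM-scaled counts and -0.14 to 0.21 with a replicate left out, so its sign was not stable; the deviations in replicates 1 and 3 kept theirs under the settings tried. No paired analysis was possible because there is a single group. Depth limits the 44 members with a library under 50 counts.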

Other observations

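Outside the rule, 61 further antisense genes reached 1 TPM in every library of the second quantification but not of the gene quantification. Gm20400, opposite Slco1a6, was listed at 0 in the gene quantification and was at 101, 156 and 118 TPM in the second. Gm15564, opposite Parp9, an interferon-induced gene, was at 0 in the first and at 44.4, 24.4 and 28.6 TPM in the second. Gm20234 at Slfn2 was at 2.70, 2.10 and 0.64 TPM against 13.1, 23.9 and 8.003 TPM. Gm11626 at Ifi35 was at 1.30, 0 and 0 TPM against 20.3, 16.5 and 6.80 TPM, and Gm14011 at Mertk, a receptor gene for dying cells, at 0.84, 1.53 and 0 TPM against 7.30, 12.6 and 5.88 TPM. Conversely, 14 of the 88 genes detected in the gene quantification were under 1 TPM in at least 1 library of the second.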
